A study of Mus musculus with 9 samples.

Results

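The messenger RNA of 10 tetraspanins was described in 3 mouse splenic B cell subsets. The members were Cd9, Cd37, Cd53, Cd63, Cd81, Cd82, Cd151, Tspan3, Tspan13 and Tspan32. They were taken by gene symbol as 10 of the 24459 rows of the deposited expression table. The choice used no cutoff on measured values, but it was made with earlier results of these data known. RNA-seq had been performed on FO, BDL and MZ B cells, with 3 libraries for each subset. FO (follicular) B cells were sorted as B220+IgMintCD21intCD23+CD93- and IgD high, and BDL (B cells IgD low) had the same surface profile but were IgD low or negative. MZ (marginal zone) B cells were B220+IgMhiCD21hiCD23-CD93-. All cells came from the spleens of naive mice aged 8 to 10 weeks, with no treatment or engineered allele stated. The spleens of 5 mice were pooled for each sort, so a library is a pool and the spread between libraries is not the spread between animals. The labels give the strain as C57/BL6, whereas the study names B10.PL mice for its RNA-seq, and the strain is therefore uncertain but is stated to be the same for all 3 subsets.

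Tetraspanins are small proteins that cross the membrane 4 times and gather integrins, immunoglobulin family proteins, proteases and signaling receptors into membrane microdomains. CD81 is found on most cell types, B cells included. CD37 and CD53 are leukocyte members, and CD9 is known as a surface protein of MZ B cells, B1 cells and plasma cells. CD63 resides mainly in late endosomes and lysosomes, while CD82 and CD151 act in adhesion, CD151 as a partner of laminin-binding integrins.

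To place the members in the genome, each was looked up in the GENCODE annotation of mouse build NCBIM37 (mm9). Cd9 (ENSMUSG00000030342.8) lay on the minus strand of chromosome 6 from 125410284 to 125444809, and its longest annotated transcript had 8 exons. Of the 10 members, 4 were on chromosome 7, namely Cd37, Cd151, Tspan32 and Cd81. Tspan32 (150190951 to 150205549) and Cd81 (150238644 to 150253839) were neighbors on the plus strand, with 33094 bp from the end of Tspan32 to the start of Cd81. Tspan3 was on the minus strand of chromosome 9, from 55983692 to 56008877. Antisense genes overlapped Cd9, Cd37, Cd81, Cd82, Cd151 and Tspan32 in this annotation. The labels call the libraries not strand specific, whereas the study names a stranded kit. If the labels are right, reads in the stretches shared with an antisense gene cannot be assigned to either gene for those 6 members. The overlap was taken over whole gene spans, and whether exons are shared was not tested. Of the antisense genes, Tead2 opposite Cd37 and R74862 opposite Cd81 had subset means from 1.96 to 3.53 FPKM. No level was found for Gm16749, which lies opposite Cd9.

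The promoters of Cd9, Cd81 and Tspan3 are shown because these were the members with at least a 2-fold higher level in MZ than in FO B cells. The sequences are from RefSeq promoters (GRCm38.p6), cut to the bases before the annotated starts and placed by exact match on NCBIM37. Cd9 is at chr6:125444810-125445028 on the minus strand, Cd81 at chr7:150238405-150238643 on the plus strand and Tspan3 at chr9:56008878-56009127 on the minus strand. Each is written 5′ to 3′ on the strand of its gene. Capitals mark TGGGAA, the core letters bound by the Notch partner RBPJ, and GGGCGG, the GC box, where these letters stand on the strand shown or on its complement.
Cd9: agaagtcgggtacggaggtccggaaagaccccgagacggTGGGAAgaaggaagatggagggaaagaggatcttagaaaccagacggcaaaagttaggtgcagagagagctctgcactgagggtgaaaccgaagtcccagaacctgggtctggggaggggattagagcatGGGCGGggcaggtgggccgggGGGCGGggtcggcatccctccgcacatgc
Cd81: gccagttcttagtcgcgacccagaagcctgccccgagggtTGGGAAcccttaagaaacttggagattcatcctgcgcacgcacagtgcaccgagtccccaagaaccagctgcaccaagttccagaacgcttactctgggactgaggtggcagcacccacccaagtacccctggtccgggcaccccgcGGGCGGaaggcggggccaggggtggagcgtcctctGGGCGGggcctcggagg
Tspan3: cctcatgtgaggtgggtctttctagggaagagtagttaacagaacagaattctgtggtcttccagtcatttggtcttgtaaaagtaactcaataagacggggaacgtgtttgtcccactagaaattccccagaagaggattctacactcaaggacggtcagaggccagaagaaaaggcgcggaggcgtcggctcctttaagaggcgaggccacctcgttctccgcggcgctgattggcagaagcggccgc
The Cd9 and Cd81 windows each held 1 RBPJ core and 2 GC boxes, and the Tspan3 window held neither. Among all 32851 RefSeq promoters, read over 250 bases before the start on both strands, 21.6% held the RBPJ core and 32.7% held a GC box. All 10 members matched that table, with 14 promoters, of which 4 held the RBPJ core and 7 held a GC box. The TATA box, searched as TATAAA, was in 12.4% of all promoters and in 0 of the 14 member promoters. The core of ETS factors, searched as CCGGAAG, was in 6.91% of all promoters and in 1 of the 14, that of Tspan32. A match is a description of the sequence only.

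Before the members were compared, the libraries were checked against markers of the sorted cells. The B cell markers Ms4a1, Cd79b and Pax5 were present in each subset, with means of 445, 737 and 181 FPKM in FO, 578, 997 and 193 in BDL, and 671, 783 and 176 in MZ B cells. FPKM scales fragments to the length of the transcript and to all mapped fragments of the library, so levels of different genes can be set side by side. Fcer2a, which encodes CD23, averaged 496 FPKM in FO, 427 in BDL and 29.6 in MZ B cells, and Cr2, which encodes CD21, averaged 141, 107 and 454 FPKM. Both proteins were used in the gate, and these values are therefore a check of the labels only. The 8 platelet markers summed to 0.225 to 0.793 FPKM per library, and Ppbp was listed at 0 in all 9. The depth, estimated from the steps between low FPKM values, was 54200000 to 72800000 fragments per library. Only a limited range of steps was searched, so these depths and the fragment numbers below are approximate. BDL replicate 2 was the least like its own subset, with a mean correlation of 0.889 over genes with the other BDL libraries, against 0.900 to 0.916 for the other 8 libraries with theirs. In bulk RNA, a lower level from fewer expressing cells cannot be told apart from a lower level in each cell.

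The members spanned a wide range of levels, and their order was led by the leukocyte tetraspanins in each subset. Cd37 was the first in all 3 subsets, with a mean ± SD of 722 ± 52.5 FPKM in FO, 651 ± 59.9 in BDL and 678 ± 37.2 in MZ B cells (n = 3 each). It ranked 115 among all rows in FO and 127 in both BDL and MZ B cells. Cd53 was the second throughout, at 149 ± 8.12 FPKM in FO, 172 ± 29.3 in BDL and 150 ± 25.5 in MZ B cells. Cd81, Tspan32, Cd82 and Tspan13 followed in FO and BDL cells with means from 39.7 to 70.6 FPKM, whereas Cd151 and Tspan3 remained under 5 FPKM there. Within that middle group of FO cells, the values of Tspan32 overlapped those of both Cd81 and Cd82 between libraries. In BDL those of Cd82, Tspan32 and Tspan13 overlapped, so the order of these neighbors is not resolved in either subset. Cd63 was the last in each subset, under 0.5 FPKM in all 9 libraries.

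**Figure D1:**
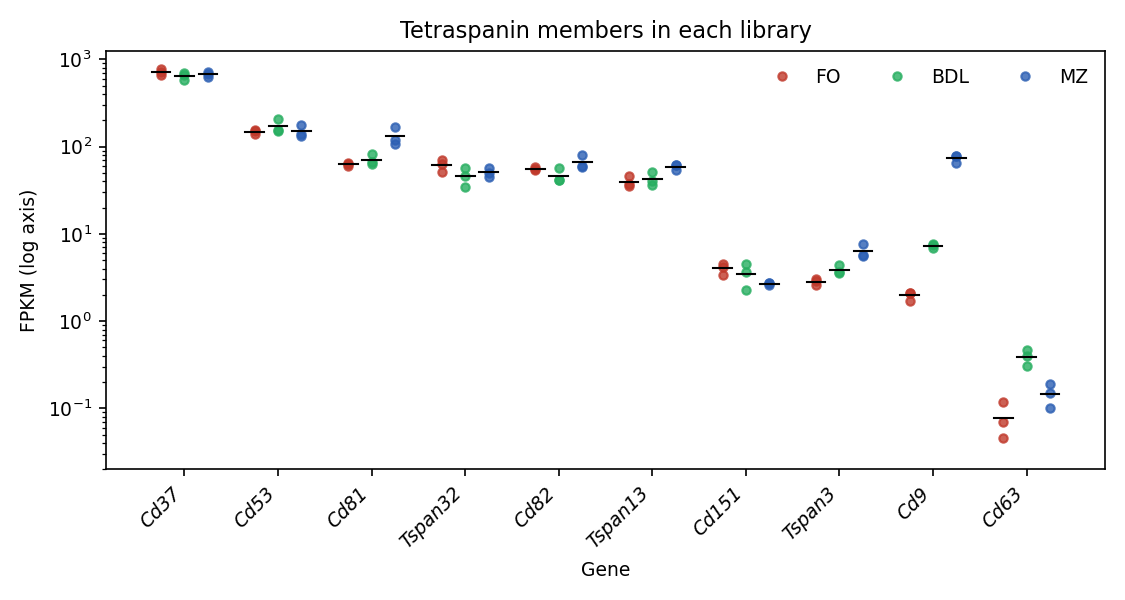
Level of each tetraspanin in FPKM (log axis) by gene, with 1 point per library, a bar at the mean of 3 libraries and colors for FO, BDL and MZ B cells. Cd37 averages 651 to 722 FPKM over the subsets, while Cd9 climbs from 1.98 in FO through 7.32 in BDL to 73.8 in MZ B cells.

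Cd9 passed the 2-fold rule in all 3 comparisons. Its level was 2.12, 1.71 and 2.12 FPKM in FO replicates 1 to 3, 7.66, 6.89 and 7.40 in BDL, and 65.2, 79.1 and 77.2 in MZ B cells. Each BDL library was above each FO library and below each MZ library, with no overlap. These levels correspond to about 124 to 154 fragments in FO, 526 to 616 in BDL and 4392 to 6167 in MZ libraries, so the FO values rest on the fewest reads.

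When BDL and FO B cells were compared, Cd9 was 3.57-fold higher in BDL on the log2(FPKM + 0.1) scale (log2 fold change 1.84, SE 0.112, limma adjusted p = 1.36e-04). The ratio was 3.62, 4.02 and 3.49 in the 3 pairs of libraries that carry the same date in their titles. Cd9 was also 9.94-fold lower in BDL than in MZ B cells (log2 fold change -3.31, SE 0.112, limma adjusted p = 1.78e-06). In MZ relative to FO B cells, the fold was 35.5 (log2 fold change 5.15, SE 0.112, limma adjusted p = 1.88e-07). On the log2 scale, the BDL mean lay 35.7% of the way from the FO to the MZ mean. A two-sided exact permutation test of 3 against 3 gave p = 0.1 for each of these differences, the smallest it can give. These 3 comparisons share libraries, so the values are not independent evidence for one another. The study picked Cd9 from these same libraries for flow cytometry of the surface protein, so the choice of the gene is not independent either. It lists CD9 among the proteins with a higher surface level but calls the increase marginal. RNA and surface protein are different measures.

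Some markers of other cell types were also higher in BDL than in FO B cells, while others on the same lists were not. The summed level of 6 MZ markers was 397 to 469 FPKM in FO, 670 to 741 in BDL and 1803 to 2201 in MZ libraries. Most of the difference in that sum between FO and BDL came from Plac8, which averaged 233, 542 and 1029 FPKM. S1pr3, a sphingosine 1-phosphate receptor of MZ B cells, averaged 1.15, 2.14 and 60.5 FPKM, and Myof averaged 1.65, 4.17 and 64.6. In contrast, Cr2 had means of 141 FPKM in FO and 107 in BDL, and Dtx1, a Notch target, had means of 38.2 and 37.2. The 5 B1 markers, including Cd5 and Bhlhe41, summed to 6.04 to 7.51 FPKM in FO, 18.0 to 22.5 in BDL and 8.23 to 15.9 in MZ libraries. The 6 plasma cell markers summed to 186 to 223 FPKM in FO, 128 to 207 in BDL and 224 to 296 in MZ libraries. Of these, Sdc1 averaged 1.499 FPKM in FO and 8.47 in BDL, but Irf4 averaged 179 and 137, Xbp1 averaged 18.2 and 16.0, and Tnfrsf17 was at 0 in all FO and BDL libraries. Higher in BDL than in FO by adjusted p were also the transitional B cell markers Cd93 (means of 3.90 and 12.5 FPKM in FO and BDL, limma adjusted p = 0.00715) and Myb (1.24 and 14.8 FPKM, limma adjusted p = 0.00549). The same held for the erythroid marker Hbb-b1 (1.49 and 5.87 FPKM, limma adjusted p = 0.00542), the macrophage marker Emr1 (0.802 and 3.48 FPKM, limma adjusted p = 8.22e-04) and the T cell marker Lck (9.06 and 20.3 FPKM, limma adjusted p = 0.00730), whereas the T cell marker Cd3e was at 0.152 and 0.198 FPKM. CD93 was part of the gate, and FO and BDL were both sorted as CD93-. By flow cytometry, the study reports the highest surface CD93 on BDL among FO, BDL and MZ B cells. The part of other cell types in the Cd9 level was not tested.

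Cd63 was higher in BDL than in both FO and MZ B cells by adjusted p, at very low levels. Cd63 was at 0.0456, 0.0689 and 0.119 FPKM in FO, 0.460, 0.393 and 0.303 in BDL, and 0.148, 0.101 and 0.191 in MZ libraries. The lowest BDL value exceeded the highest FO and MZ values. The values correspond to about 3 to 6 fragments in FO, 18 to 27 in BDL and 5 to 12 in MZ libraries. Because its mean was under the minimum of 0.5 FPKM, Cd63 was read from a fit without a minimum. In that fit, it was higher in BDL than in FO B cells (log2 fold change 1.46, SE 0.205, limma adjusted p = 0.00802). On the log2(FPKM + 0.1) scale, the difference from MZ B cells was just under 2-fold (log2 fold change 0.98, SE 0.205, limma adjusted p = 0.0127). With a pseudocount of 0.01 it was over 2-fold (log2 fold change 1.36, limma adjusted p = 0.0362), so its size depends on the pseudocount. With a pseudocount of 1 in place of 0.1, the BDL over FO value shrank to a log2 fold change of 0.36.

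Across the family, few members differed between BDL and FO B cells. Of the 9 members that passed the minimum, 1 (Cd9) was called higher in BDL than in FO at a limma adjusted p under 0.05 and a fold of at least 2, where 1.64% of all 11597 rows were. In the same comparison, 0 were lower by limma, with 0 at an unadjusted p under 0.05, beside 0.267% of all rows. By adjusted p alone the member counts were 1 higher and 0 lower, beside 6.04% and 1.68% of all rows. Relative to MZ B cells, 1 member (Cd9) was lower in BDL under the 2-fold rule and 0 were higher by limma (0 at an unadjusted p under 0.05), beside 4.34% and 3.47% of all rows. By adjusted p alone, 4 members were lower in BDL than in MZ (Cd9, Cd81, Tspan3 and Tspan13), beside 11.6% of all rows, and 0 were higher, beside 16.5%.

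In MZ compared with FO B cells, 3 of the 9 members were called higher (Cd9, Cd81 and Tspan3), beside 5.54% of all rows. None was lower by limma, with 1 (Cd151) at an unadjusted p under 0.05, beside 3.39% of all rows. By adjusted p alone, Tspan13 joined them to make 4 higher, beside 14.3% of all rows, and 0 were lower, beside 12.8%. The median log2 fold change of the 9 members was 0.10 for BDL over FO, -0.48 for BDL over MZ and 0.24 for MZ over FO. Over all rows tested the medians were 0.048, 0.057 and -0.0087.

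**Figure D2:**
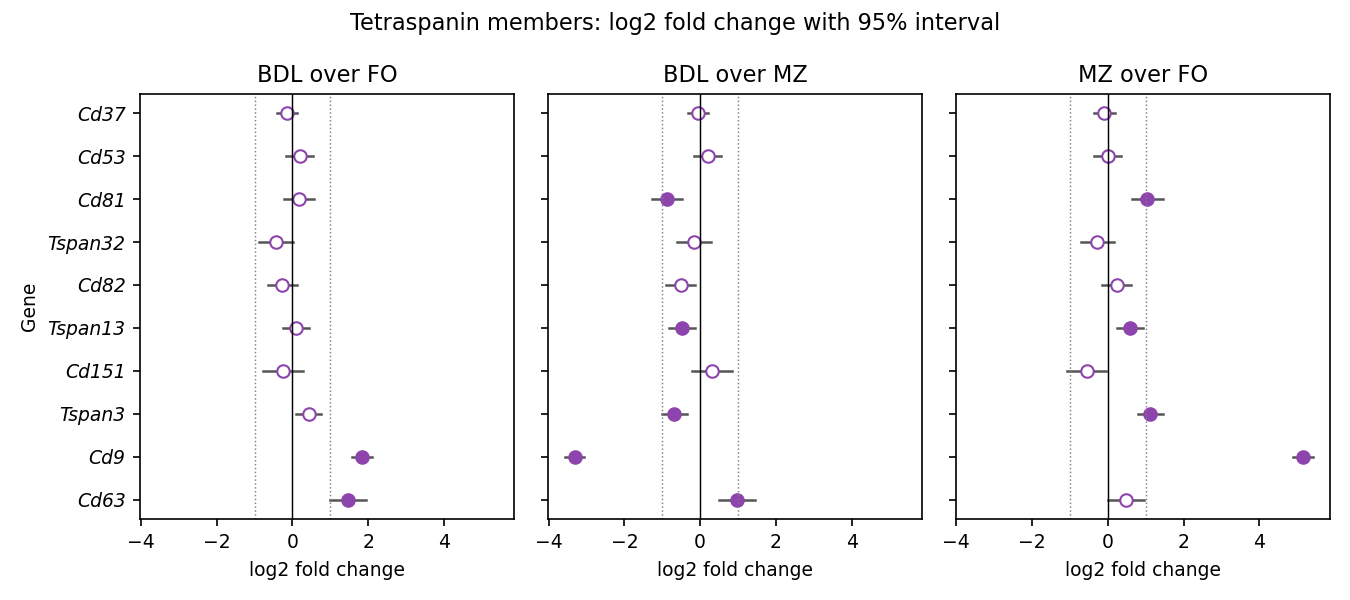
Log2 fold change of each member in the 3 comparisons (horizontal axis), with bars for the 95% interval of limma, filled points for an adjusted p under 0.05 and dotted lines at a 2-fold change. Cd63 is from the fit without a minimum. Cd9 stands apart in each panel, at 1.84, -3.31 and 5.15, while Cd37 stays within 0.15 of 0.

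Cd81 was higher in MZ B cells. It measured 65.0, 63.1 and 59.5 FPKM in FO, 67.5, 81.6 and 62.6 in BDL, and 119, 168 and 107 in MZ libraries. All MZ values were above all FO and BDL values, and the FO and BDL values overlapped. The difference of MZ over FO was 2.07-fold (log2 fold change 1.05, SE 0.173, limma adjusted p = 0.00259), and that of BDL over MZ was a log2 fold change of -0.88 (SE 0.173, limma adjusted p = 0.00653). Between BDL and FO B cells the log2 fold change was 0.17 with a 95% interval from -0.23 to 0.56. Without MZ replicate 2, the highest library, MZ over FO fell below 2-fold at a log2 fold change of 0.86 with a limma adjusted p of 0.00295.

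Tspan3 gave graded values at a lower level. It stood at 2.60, 2.88 and 3.005 FPKM in FO, 3.56, 4.39 and 3.61 in BDL, and 5.69, 7.65 and 5.57 in MZ libraries. The 3 subsets did not overlap, with BDL in the middle. MZ over FO was 2.17-fold (log2 fold change 1.12, SE 0.142, limma adjusted p = 6.39e-04), and BDL over MZ was a log2 fold change of -0.69 (limma adjusted p = 0.00844). BDL over FO was a log2 fold change of 0.43 (95% interval 0.10 to 0.76), which did not pass in limma (adjusted p = 0.108) but did with the date as a block (adjusted p = 0.0324). Without MZ replicate 2, MZ over FO was just under 2-fold, at a log2 fold change of 0.97 with a limma adjusted p of 0.00119.

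Tspan13 was higher in MZ B cells by less than 2-fold, and Cd82 lay close to the threshold. Tspan13 measured 35.8, 36.9 and 46.4 FPKM in FO, 36.6, 50.9 and 40.3 in BDL, and 53.6, 61.9 and 60.9 in MZ libraries. The MZ values lay above all others, whereas FO and BDL overlapped. The log2 fold change was 0.57 for MZ over FO (limma adjusted p = 0.0227) and -0.48 for BDL over MZ (limma adjusted p = 0.0458). Over 19 alternatives, the adjusted p of these differences was under 0.05 in 15 and 9, and FO replicate 1, FO replicate 2, MZ replicate 2 and MZ replicate 3 each ended both when left out. Leaving out BDL replicate 1, BDL replicate 3 or MZ replicate 1 also ended the second, with values up to 0.133.

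Cd82 stood at 55.1, 57.9 and 53.9 FPKM in FO, 41.3, 57.4 and 41.1 in BDL, and 58.4, 80.5 and 59.8 in MZ libraries. MZ lay above both other subsets, although narrowly, while BDL replicate 2 was level with the FO libraries. The log2 fold change of BDL over MZ was -0.51 (limma adjusted p = 0.0523), and -0.50, -0.49 and -0.54 within the 3 date pairs. With the date as a block, this difference passed (limma adjusted p = 0.00783). Neither BDL over FO (log2 fold change -0.27, limma adjusted p = 0.351) nor MZ over FO (0.24, limma adjusted p = 0.348) passed.

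The remaining 4 members did not pass the test in any comparison. The log2 fold change of Cd37, a tetraspanin needed for normal antibody responses, was -0.15 for BDL over FO, with a 95% interval from -0.42 to 0.11, and -0.09 for MZ over FO, with an interval from -0.36 to 0.18. Its FO values of 724, 773 and 668 FPKM overlapped those of BDL (697, 583 and 672) and MZ cells (637, 709 and 688). Cd53 was similar in this regard, with 140, 155 and 152 FPKM in FO, 153, 205 and 156 in BDL, and 139, 179 and 131 in MZ libraries. Its log2 fold change was 0.19 for BDL over FO, 0.20 for BDL over MZ and under 0.01 in size for MZ over FO, where the sign turned to 0.049 with upper quartile scaling. A test that is not passed does not show that the levels are equal.

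Cd151 was at 4.54, 4.17 and 3.34 FPKM in FO, 4.53, 2.27 and 3.61 in BDL, and 2.61, 2.72 and 2.70 in MZ libraries. The MZ values were below all FO values, but BDL replicate 2 was below the MZ values and its 2 companions above them. MZ over FO was a log2 fold change of -0.56 (95% interval -1.08 to -0.04, limma adjusted p = 0.110) and it passed under 3 of 19 alternatives, the fit without BDL replicate 2 among them (limma adjusted p = 0.0154). Tspan32, a member found mainly in blood cells, was at 69.5, 63.5 and 51.6 FPKM in FO, 57.1, 34.9 and 46.4 in BDL, and 57.6, 44.7 and 49.9 in MZ libraries. The subsets overlapped, and the log2 fold change of BDL over FO was -0.43 (95% interval -0.88 to 0.01, limma adjusted p = 0.218). Thus Tspan32 and its neighbor Cd81 gave values of opposite sign for MZ over FO, at -0.27 and 1.05.

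The summed level of the 10 members was 1099 ± 58.9 FPKM in FO, 1043 ± 22.5 in BDL and 1218 ± 102 in MZ B cells (mean ± SD, n = 3 each). Without Cd37, the sum was 377 ± 6.90, 393 ± 44.97 and 540 ± 72.6 FPKM, with the lowest MZ library at 495 above the highest BDL library at 444. Cd37 supplied 65.6% of the sum in FO, 62.3% in BDL and 55.8% in MZ B cells. The share of Cd9 was 0.181% in FO, 0.701% in BDL and 6.06% in MZ B cells. By mean level Cd9 was the ninth member in FO, the seventh in BDL and the fourth in MZ B cells, where it was ahead of Cd82, Tspan13 and Tspan32. The ranges of Cd9 and Cd82 overlapped in MZ libraries. The share of Cd81 was 5.70%, 6.77% and 10.7% in the same order. The FPKM of all rows summed to 446033 to 461648 per library in FO, 467018 to 477024 in BDL and 466241 to 517208 in MZ B cells. The member sums were not scaled to these totals.

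**Figure D3:**
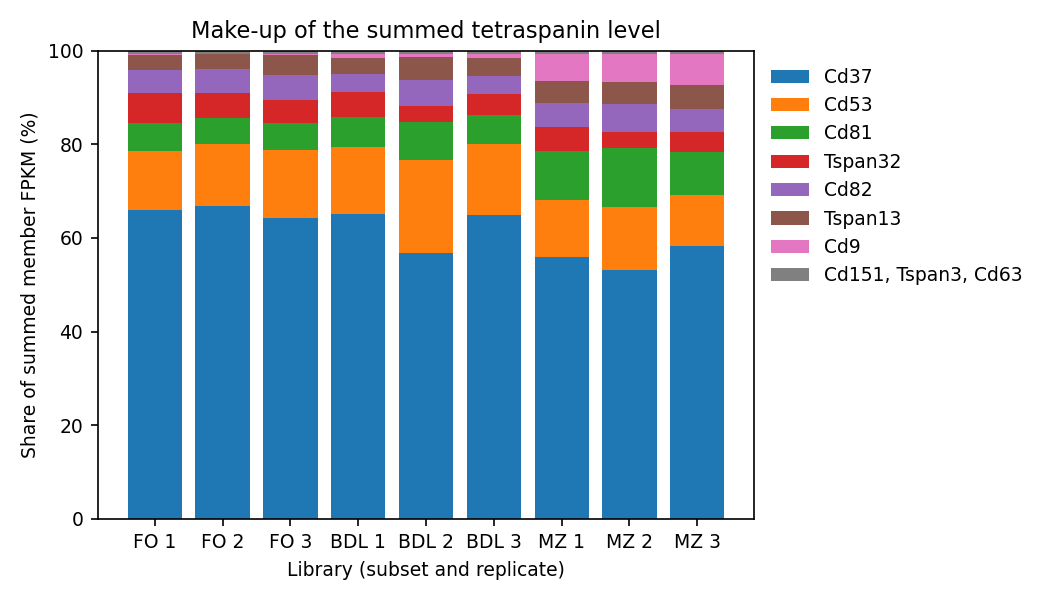
Share of the summed FPKM of the 10 members (percent, vertical axis) held by each member in each of the 9 libraries. Cd37 holds at least 53.2% of the bar in every library, and the Cd9 segment is visible only in the 3 MZ libraries, at about 6.06% on average.

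To find genes with a pattern like that of Cd9, Pearson r was computed on log2(FPKM + 0.1) over the 9 libraries for every other row tested. The highest were Galm (r = 0.998), Cacnb4 (r = 0.997), Rgs10 (r = 0.997), Ackr2 (r = 0.996) and Csf2rb (r = 0.996). Rgs10, a regulator of G protein signaling, averaged 1.53 FPKM in FO, 5.61 in BDL and 56.7 in MZ B cells. Ackr2, an atypical chemokine receptor, averaged 1.05, 4.02 and 39.7 FPKM. Csf2rb, the shared beta chain of cytokine receptors, averaged 1.99, 5.02 and 23.6 FPKM. Among the members, r with Cd9 was 0.950 for Tspan3, 0.905 for Cd81 and 0.830 for Tspan13, and -0.654 for Cd151. These values describe 9 points in 3 clusters that share libraries and dates.

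The family was then extended to 21 other tetraspanins, of which 8 passed the minimum. Relative to FO, 3 were called higher in MZ B cells (Tspan15, Tspan31 and Tspan4) and 0 lower by limma (2 at an unadjusted p under 0.05). Relative to MZ, 2 were lower in BDL (Tspan15 and Tspan31) and 0 higher by limma (4 at an unadjusted p under 0.05). Between BDL and FO, 0 were called in either direction by limma, with 2 higher and 0 lower at an unadjusted p under 0.05. The background shares are those given for the members. Tspan8 and Upk1b were listed at 0 in all 9 libraries.

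Tspan15 was the other tetraspanin with a large difference. It belongs to the TspanC8 group, whose members bind the protease ADAM10 and guide its traffic and choice of substrates. Its level was 1.03, 0.948 and 1.004 FPKM in FO, 1.15, 0.685 and 0.968 in BDL, and 11.4, 24.6 and 21.7 in MZ libraries. FO and BDL overlapped and MZ was far above both, whereas for Cd9 all 3 subsets were apart. The log2 fold change was 4.07 for MZ over FO (SE 0.286, limma adjusted p = 2.47e-05) and -4.18 for BDL over MZ (SE 0.286, limma adjusted p = 2.68e-05). Between BDL and FO it was -0.11, with a 95% interval from -0.76 to 0.55.

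A different pattern was found for Tspan14, also of the TspanC8 group. Tspan14 stood at 16.3, 16.6 and 16.6 FPKM in FO, 21.1, 22.5 and 22.0 in BDL, and 14.2, 16.2 and 16.2 in MZ libraries. All BDL values exceeded all others. The log2 fold change was 0.40 for BDL over FO (SE 0.0747, limma adjusted p = 0.0178) and 0.49 for BDL over MZ (SE 0.0747, limma adjusted p = 0.00188). The first of these did not pass when any 1 FO library or BDL replicate 3 was left out, with an adjusted p of at most 0.0831. Tspan5, of the same group, was higher in BDL than in MZ cells (log2 fold change 0.48, limma adjusted p = 0.00766), and Tspan17 did not pass in any comparison. Adam10 itself averaged 23.2 FPKM in FO, 32.6 in BDL and 30.6 in MZ B cells, and did not pass in any comparison.

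The others that passed differed by about 2-fold or less. Tspan31 averaged 14.3 FPKM in FO, 13.5 in BDL and 29.5 in MZ B cells, for a log2 fold change of 1.02 in MZ over FO (limma adjusted p = 0.00103). Without MZ replicate 2 this was 0.85, and BDL over MZ was -0.94, both under 2-fold, so that 1 other tetraspanin (Tspan15) remained lower in BDL than in MZ. Tspan4, a protein of migrasomes, averaged 0.458, 0.563 and 1.05 FPKM, with a log2 fold change of 1.06 in MZ over FO (limma adjusted p = 0.0101), which also went under 2-fold without MZ replicate 2 or FO replicate 1. Rom1 fell in MZ relative to FO B cells (log2 fold change -0.74, limma adjusted p = 5.64e-04), and Tspan2 was higher in BDL than in MZ cells (0.47, limma adjusted p = 0.0221). Tspan18 and Upk1a, under the minimum, were also lower in MZ than in FO in the fit without a minimum. Their log2 fold changes were -0.867 (limma adjusted p = 0.0111) and -0.875 (limma adjusted p = 0.0236). With a pseudocount of 0.01 these were -1.26 and -1.20, so their size depends on the pseudocount. Upk1a did not pass when FO replicate 2 or 3 or MZ replicate 1 or 3 was left out.

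**Figure D4:**
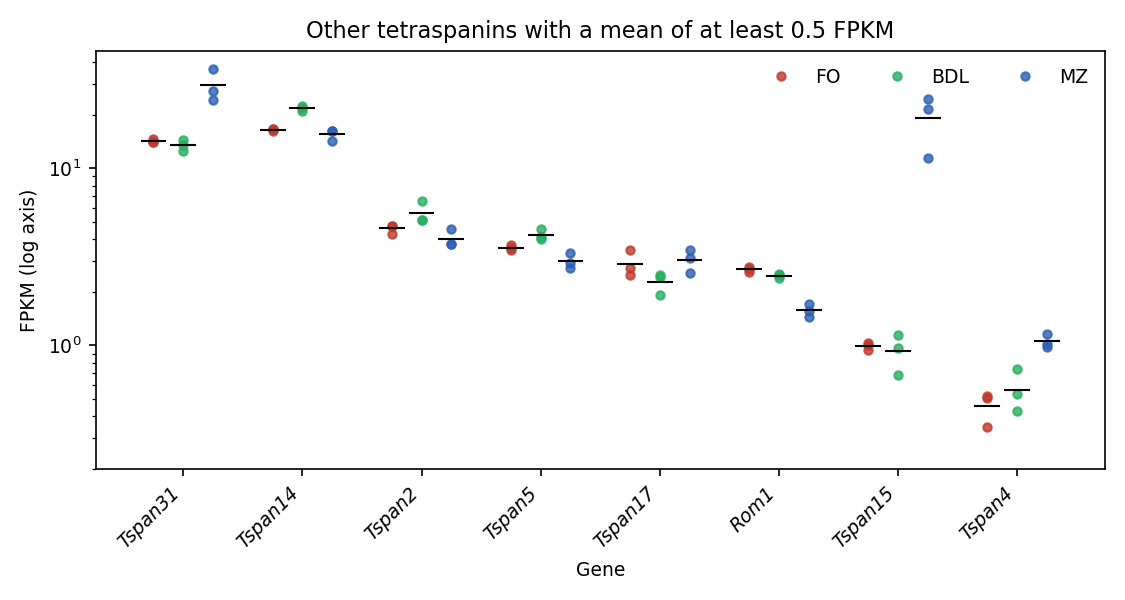
Level in FPKM (log axis) of the 8 other tetraspanins that passed the minimum, with 1 point per library and a bar at the mean of 3 libraries. Tspan15 averages 19.3 FPKM in MZ B cells against 0.993 in FO and 0.934 in BDL, while Tspan14 is highest in the 3 BDL libraries.

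Proteins that tetraspanins hold in the membrane were examined next, with 18 of 23 listed partners above the minimum. Between BDL and FO B cells 0 partners were called higher and 0 lower by limma, beside 1.64% and 0.267% of all rows. At an unadjusted p under 0.05, 3 were higher and 3 lower. The share of all rows at an unadjusted p was not computed, here or for the counts above. Relative to MZ, 2 were higher in BDL (Itga6 and Ifitm2) and 1 lower (Cr2), beside 3.47% and 4.34% of all rows. In MZ over FO, 2 were called higher (Cr2 and Itgb1) and 1 lower (Itga6), beside 5.54% and 3.39% of all rows. Cr2 encodes CD21, which was used in the gate, so its calls in both comparisons are a check of the labels only. The call of Ifitm2 was lost when BDL replicate 1 or 3 or MZ replicate 1 or 2 was left out.

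Itga6 and Itgb1, integrin chains that pair with CD9 and CD151, moved in opposite directions in MZ B cells. Itga6, the laminin-binding alpha 6 chain, was at 4.75, 4.81 and 4.74 FPKM in FO, 4.68, 6.09 and 4.21 in BDL, and 0.728, 0.731 and 0.795 in MZ libraries. MZ values were well below the others, which overlapped, and the log2 fold change was -2.52 in MZ over FO (SE 0.132, limma adjusted p = 5.72e-06). Itgb1, the beta 1 chain, was at 6.39, 7.76 and 7.99 FPKM in FO, 10.5, 14.0 and 10.2 in BDL, and 18.8, 25.1 and 18.7 in MZ libraries. The 3 subsets did not overlap, as for Tspan3 and Cd9, with a log2 fold change of 1.48 in MZ over FO (SE 0.166, limma adjusted p = 3.13e-04). In BDL over FO, Itgb1 was 0.64 on the log2 scale (95% interval 0.25 to 1.02, limma adjusted p = 0.0557). Of the other listed alpha chains, Itga3 was under the minimum, with means of 0.236 FPKM in FO, 0.284 in BDL and 0.460 in MZ B cells. In the fit without a minimum, its log2 fold change was 0.74 in MZ over FO (limma adjusted p = 0.00901). It was -0.55 in BDL over MZ (limma adjusted p = 0.0314). Itga4 averaged 59.3, 55.6 and 49.8 FPKM in FO, BDL and MZ B cells.

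Igsf8, an immunoglobulin family protein that binds CD9 and CD81 directly, was less abundant in MZ than in FO B cells (log2 fold change -0.47, limma adjusted p = 0.00470) and higher in BDL than in MZ cells (0.63, limma adjusted p = 0.00121). Hbegf, a growth factor precursor that associates with CD9, was under the minimum at 0.0447 FPKM in FO and 0.0559 in BDL, and reached 0.646 FPKM in MZ B cells. In the fit without a minimum, its log2 fold change in MZ over FO was 2.30 (SE 0.304, limma adjusted p = 0.00139).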

How the data were processed

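RNA-seq was analysed for 9 libraries, 3 each of FO, BDL and MZ B cells. Groups came from the sample labels. Per the labels and the study's methods, the authors aligned reads to mm9 with TopHat 2.1.0 and estimated FPKM with Cufflinks, and deposited 1 FPKM per gene and library (24459 rows, 23954 distinct symbols). The Cufflinks version and annotation are not given in the sources used here. The labels state single-end reads, not strand specific, whereas the methods name a stranded kit and 2 files per sample. FPKM is relative to all mapped fragments, so a change in a few abundant genes shifts the rest. Columns of the authors' own Cuffdiff comparisons hold fold changes and p-values and were not used.

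Values were used as log2(FPKM + 0.1). The minimum was a mean of 0.5 FPKM over the 9 libraries, which 11597 rows reached. The test was that of limma (version 3.58.1, in R 4.3.3; empirical Bayes with trend, all 9 libraries, Benjamini-Hochberg over all rows). Calls needed an adjusted p under 0.05 together with a 2-fold change, as in the study. The fit was tested on simulated data. Files were read and figures drawn with Python 3.11.15 and matplotlib 3.10.9. Depth was estimated from the spacing of low values of long single-transcript genes, of which 65.0% to 75.0% lay within 0.1 of a whole fragment, too few to recover counts. 1 fragment on 1 kb was worth 0.0137 to 0.0184 FPKM. This step was searched over a 2-fold range only, and a step outside that range was not tested. All 10 members were named, with each other tetraspanin and partner that was called, the most abundant that were not, and the 5 genes most like Cd9. The members and lists were chosen with earlier results of these data known. Genes that passed without a 2-fold change were named after their values were seen.

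Libraries with the same replicate number carry the same date in their titles, with 1 library of each subset per date, and form the date pairs. The main fit held the subset only, so its p-values do not use this pairing. Deviations from the subset means correlated over genes within date pairs at -0.0623 to 0.147 for BDL with FO, 0.100 to 0.244 for BDL with MZ and 0.00770 to 0.0238 for MZ with FO. Between libraries of different dates, the values were -0.183 to 0.130, -0.189 to 0.0381 and -0.0233 to 0.0105 in the same order. The date was a block in an alternative fit. Other alternatives changed the pseudocount, the minimum, the scaling, the libraries fitted, the treatment of repeated symbols and the variance trend, or left out 1 library. No depth is stated in the table, and no counting interval is given.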

Additional observations from a re-analysis of the deposited data

How the results depend on the processing

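Of 564 values of single members under an alternative, 544 kept their direction and their side of the threshold, 4 lost a call, 6 gained one and 10 changed sign. Cd9 was called in all 3 comparisons under each alternative, with a log2 fold change of 1.48 to 1.89 for BDL over FO, -3.42 to -3.17 for BDL over MZ and 4.65 to 5.24 for MZ over FO. With the replicate block by date, the counts of called members were 1 higher and 0 lower for BDL over FO, 0 and 1 for BDL over MZ, and 3 and 0 for MZ over FO, and apart from the adjusted p of Tspan3 (BDL over FO) and Cd82 (BDL over MZ) no member moved across 0.05.

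With no minimum, members higher in BDL than in FO numbered 2 in place of 1, since Cd63 was then tested. Members lower in BDL than in MZ numbered 1 to 2 when 1 library was left out, 2 with quantile normalization (Cd81 added) and 4 by adjusted p alone. Members higher in MZ than in FO numbered 1 to 3 when 1 library was left out, the 1 without MZ replicate 2. Upper quartile scaling shifted the median of all genes by -0.11 (log2) for BDL over MZ.

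The values that changed sign were all uncalled. When 1 library was left out, the log2 fold change ranged from -0.46 to 0.0207 for Cd151 and from -0.0375 to 0.21 for Tspan13 (BDL over FO), from -0.11 to 0.0143 for Cd37 and from -0.33 to 0.0282 for Tspan32 (BDL over MZ), each turned by BDL replicate 2, and from -0.14 to 0.0863 for Cd53 (MZ over FO). Cd53 was also 0.0494 with upper quartile scaling and 0.0144 with quantile normalization. The cause of these changes was not tested. Partners called higher in BDL than in MZ numbered 1 in place of 2 under 8 alternatives, and other tetraspanins called higher in MZ than in FO 1 in place of 3 with a pseudocount of 1 or without MZ replicate 2. Reads set the limit for Cd63, at about 3 to 27 fragments per library.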

Other observations

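BDL replicate 2 and MZ replicate 2 carry the same date and were each the highest of their subset for Cd53, Cd81, Cd82, Tspan3, Tspan13 and Itgb1, and the lowest for Tspan32. FO replicate 2, of the same date, was the highest FO library for Cd53 and Cd82, and lay between its companions for Cd81, Tspan3, Tspan13, Itgb1 and Tspan32. This was noticed after the values were seen and was not tested.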
